A study of Homo sapiens with 6 samples.

Results

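The AP-1 transcription factors were examined in T24 cells, an established human bladder cancer cell line, that carried either an empty vector or an RNF112 overexpression construct (oeRNF112). RNF112 is an E3 ubiquitin ligase, and the series was made to look for what lies downstream of it. The members were the genes FOS, FOSB, FOSL1, FOSL2, JUN, JUNB, JUND, ATF3, MAFF and MAFK, picked by symbol, and 10 of 10 were listed among the 23152 genes of the count table. There were 3 vector and 3 oeRNF112 samples, and no other treatment separated the groups by their labels. The deposited treatment text describes siRNA transfection with Lipofectamine, while the paper's methods describe both siRNAs and plasmids, and whether the sequenced cells were transfected transiently or were a stable line is not given in the sources used here. Nothing in the labels states that the 3 samples of a group were separate cultures, so p-values measure the spread between these samples, which may be technical.

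AP-1 is a dimer of basic leucine zipper (bZIP) proteins. JUN proteins pair with themselves, with FOS proteins or with ATF family members, whereas FOS proteins need a JUN partner to bind DNA. The dimers recognise the TPA response element TGANTCA or the cAMP response element TGACGTCA. FOS, JUN, ATF3 and MAFF are early-response genes whose transcripts rise quickly and briefly after growth factors, cytokines or stress. FOSL1, also called FRA1, is a longer-lived FOS protein that is prominent in carcinoma cells with strong RAS-MAPK signaling. MAFF and MAFK are small MAF proteins, which lack a transactivation domain and act as partners of the NFE2-like and BACH factors.

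Promoter windows of 4 members are shown: FOS, FOSL2 and MAFF, which passed the test below, and FOSB, the closest relative of FOS. All 4 hold TGACGT, so they do not represent the members as a whole. ATF3, which also passed and had the largest rise, had windows without TGACGT, and these are not shown. The sequences come from RefSeq (GRCh38.p14) and hold the 250 bases before the annotated start, 5′ to 3′ on the strand of the gene. Capitals mark TGACGT on either strand, which is the core shared with TGACGTCA. FOS lay at chr14:75278578-75278827, FOSB at chr19:45467746-45467995 and FOSL2 at chr2:28392608-28392857. MAFF, at the upstream one of its RefSeq starts, lay at chr22:38201744-38201993, and all 4 were on the plus strand. GENCODE v29 (GRCh38) starts FOSL2 at 28392448 and MAFF at 38200767, so by that annotation both windows lie inside the gene. It starts FOS at 75278774, which is inside the FOS window. The other called members were annotated in GENCODE v29 (GRCh38), ATF3 at chr1:212565334-212620777 and MAFK at chr7:1530714-1543043, both on the plus strand.
FOS: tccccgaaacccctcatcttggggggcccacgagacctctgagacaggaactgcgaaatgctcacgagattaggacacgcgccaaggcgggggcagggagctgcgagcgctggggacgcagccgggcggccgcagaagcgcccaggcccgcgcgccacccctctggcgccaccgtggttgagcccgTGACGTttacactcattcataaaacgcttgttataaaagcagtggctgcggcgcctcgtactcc
FOSB: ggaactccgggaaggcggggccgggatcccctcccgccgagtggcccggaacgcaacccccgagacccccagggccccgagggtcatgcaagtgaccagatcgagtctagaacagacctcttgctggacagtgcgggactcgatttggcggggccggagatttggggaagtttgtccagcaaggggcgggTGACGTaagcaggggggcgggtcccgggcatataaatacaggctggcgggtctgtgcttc
FOSL2: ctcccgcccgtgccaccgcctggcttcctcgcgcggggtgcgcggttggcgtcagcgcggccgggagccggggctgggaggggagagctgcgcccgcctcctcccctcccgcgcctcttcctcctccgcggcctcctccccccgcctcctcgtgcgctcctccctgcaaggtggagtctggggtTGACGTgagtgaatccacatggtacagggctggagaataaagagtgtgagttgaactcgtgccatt
MAFF: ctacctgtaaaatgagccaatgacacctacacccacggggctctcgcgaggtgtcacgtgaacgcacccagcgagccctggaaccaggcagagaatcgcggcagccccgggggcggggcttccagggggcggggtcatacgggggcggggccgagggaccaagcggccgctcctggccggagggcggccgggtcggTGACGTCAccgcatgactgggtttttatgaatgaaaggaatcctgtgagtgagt

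All distances are counted from the RefSeq starts. The capital letters stood 64 bases before the start in FOS, 60 in FOSB, 66 in FOSL2 and 54 in MAFF. In MAFF they formed the full element TGACGTCA. JUND held TGACGTCA 200 bases before its start and a further match to TGACGT, on the other strand, 87 bases before it. In JUN and in the upstream window of ATF3 the related TGACATCA was found, 67 and 123 bases before the start. GENCODE v29 starts JUN, on the minus strand, at 58784327, so by that annotation the JUN window lies inside the gene. It starts ATF3 at 212565334, which is inside that ATF3 window. Windows were matched for 8 of the 10 members, and FOSL1 and MAFK had none. Among 35116 promoter windows of the same length, TGACGT was present in 7.1%, TGACGTCA, which contains it, in 1.65% and TGACATCA in 2.37%, each searched on both strands. TGANTCA, present in 6.57% of all windows, was found in none of the members' windows. A TATAAA box, present in 10.7% of windows, stood 33, 30 and 31 bases before the start in FOS, FOSB and JUNB. The CArG box bound by serum response factor, found in 1.16% of windows, was not in these stretches. Sequence farther upstream was not searched, so this does not show that a promoter, that of FOS included, lacks a CArG box.

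Depth was even, with 40029547 to 41259569 counts in each sample, and RNF112 had 19 to 27 counts in the vector samples and 29753 to 36963 in the oeRNF112 samples, as the labels have it. Composition differed between groups, since the top 100 genes held 20.6% to 22.9% of counts in vector and 18.0% to 19.6% in oeRNF112. The TMM factors were 0.957 to 0.988 in vector and 1.01 to 1.05 in oeRNF112. The summed RPKM of 6 epithelial and mesenchymal genes typical of T24 cells (KRT7, KRT8, KRT18, KRT19, VIM and CDH2) was 3655 to 4289 in vector and 3074 to 3676 in oeRNF112. Of the 6, 3 passed the edgeR test described below as lower. For this and the marker counts that follow, the share of all genes tested that passed was 18.1%, with 9.97% higher and 8.14% lower. Of 9 luminal urothelial markers, 8 were listed, and their summed RPKM was 16.6 to 18.3 in vector and 13.5 to 15.2 in oeRNF112. FOXA1 was the 1 of 4 tested that passed, as lower (log2 fold change -1.08, adjusted p = 0.00132 from edgeR), PPARG was at 54.9 ± 3.42 and 59.3 ± 1.04 CPM (SD, n = 3), and CDH1 and UPK3A never exceeded 1 count. The 5 endothelial markers never exceeded 11 counts, and the 6 fibroblast markers summed to 1.14 to 1.59 RPKM in vector and 1.80 to 1.91 in oeRNF112. Of the 3 fibroblast markers tested, 1 passed as higher. All 3 had a fitted value above 0, with log2 fold changes from 0.28 to 2.36. The 10 leukocyte markers summed to 17.4 to 18.6 RPKM in vector and 33.3 to 40.9 in oeRNF112, with CD68, a lysosomal protein also made outside leukocytes, at 13.5 ± 0.786 and 33.3 ± 4.30 RPKM (SD, n = 3). Of the 5 leukocyte markers tested, CD68 passed as higher and LAPTM5 as lower (log2 fold change -0.88, adjusted p = 0.0308 from edgeR), and 4 had a fitted value below 0, with a median of -0.58 over the 5. Which markers to name was decided with their values in view. The part of these markers in the results was not tested.

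The 10 members did not move together. FOS fell to 33.1% of its vector level, whereas FOSL2, ATF3, MAFF and MAFK rose by 1.39 to 1.79 times. FOSB, FOSL1, JUN, JUNB and JUND did not pass the test. In the edgeR quasi-likelihood test over the 14467 genes that passed its filter on low counts, with a Benjamini-Hochberg adjusted p under 0.05, 4 members were higher and 1 was lower, or 5 of 10. Among all genes tested, 18.1% passed, 9.97% as higher and 8.14% as lower. Higher genes made up 55.0% of these calls, and 75.4% when library totals were used without TMM scaling. In CPM scaled by TMM factors, the same 5 members were those whose groups did not overlap, against 36.8% of all genes tested. In RPKM, which has no TMM scaling, the groups of FOSB and JUN did not overlap either, and the share over all genes was counted in CPM only. The median log2 fold change of the members was 0.13, beside 0.003 over all genes.

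**Figure D1:**
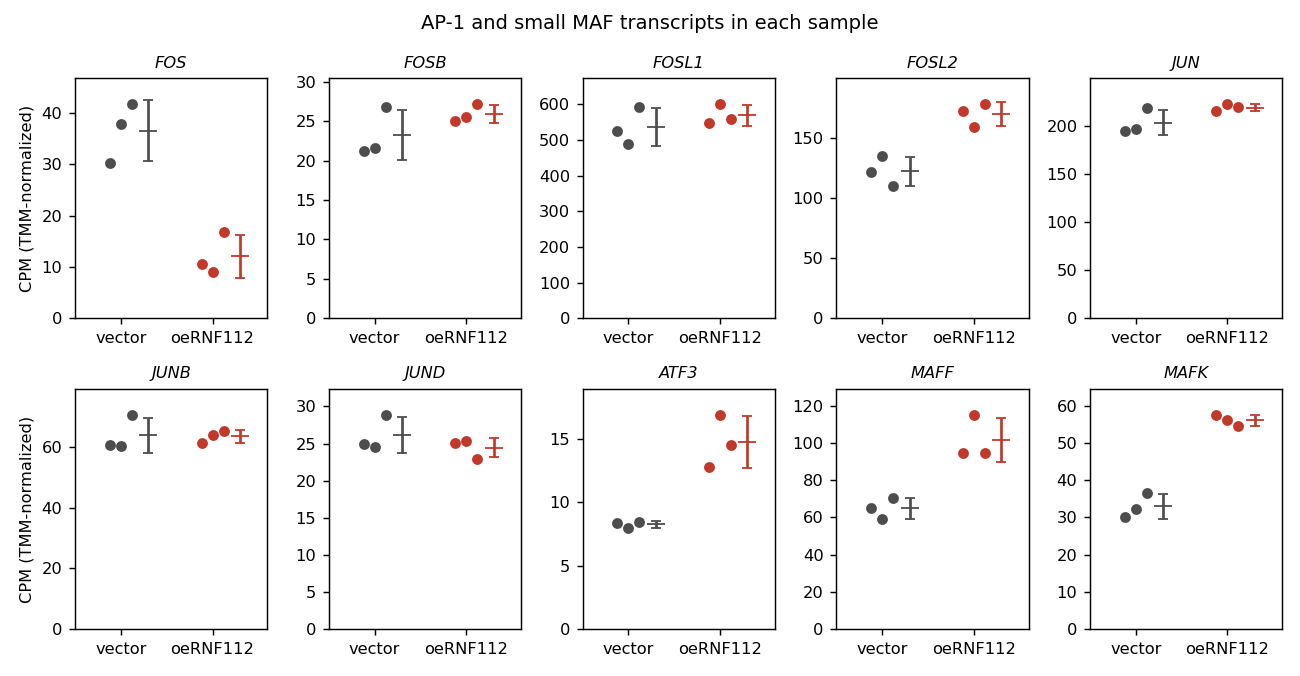
Normalized level (CPM after TMM scaling, linear axis from 0, own scale for each gene) of the 10 members in every sample, vector in grey and oeRNF112 in red, in the order of replicates 1 to 3; the bar beside each group is the mean ± SD. FOS lies lower and FOSL2, ATF3, MAFF and MAFK lie higher in all 3 oeRNF112 samples than in all 3 vector samples, while the groups of the other 5 genes overlap.

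FOS encodes the founding FOS protein, an unstable early-response factor. Vector replicates 1 to 3 gave 1194, 1512 and 1610 FOS counts, and oeRNF112 replicates 1 to 3 gave 434, 367 and 714. Every oeRNF112 sample lay below every vector sample, and oeRNF112 replicate 3 was the nearest to the vector range. In CPM scaled by TMM factors, the level was 36.6 ± 5.87 in vector and 12.1 ± 4.21 in oeRNF112 (SD, n = 3). edgeR fitted a log2 fold change of -1.60 with a 95% interval from -2.08 to -1.11 and a standard error of 0.217 (adjusted p = 0.00141). Of the 14467 genes tested, 33 (0.228%), FOS included, had a fitted value as low. The coefficient of variation of FOS was 34.8% among the oeRNF112 samples, the highest of the 10 members in that group, and 16.0% among the vector samples.

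The level of FOS was also set against other transcripts within each sample. These ratios rest on the same FOS counts as the fitted fall and are no separate evidence of it. The RPKM ratio of FOS to EGR1, another early-response gene, stood at 0.822, 0.819 and 0.818 in vector replicates and at 0.167, 0.205 and 0.259 in oeRNF112 replicates. EGR1 itself had 2166, 2753 and 2935 counts in vector and 3865, 2663 and 4114 in oeRNF112, and it did not pass the test (log2 fold change 0.35, adjusted p = 0.163 from edgeR). Thus FOS and EGR1 kept a nearly fixed ratio among the vector samples although their own counts differed. The ratio of FOS to FOSB spanned 2.55 to 3.14 in vector but 0.627 to 1.11 in oeRNF112, so that FOS stood above FOSB per length in each vector sample and below it in 2 of the 3 oeRNF112 samples. The ratio of FOS to JUN spanned 0.240 to 0.298 in vector but 0.0622 to 0.119 in oeRNF112. None of the 3 ratios overlapped between groups, and each had an exact two-sided permutation p of 0.1, the smallest that 3 samples against 3 can give (0.1 after adjustment over the 3 ratios). These 3 ratios, and EGR1, were chosen after the values had been seen.

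FOSL2, or FRA2, is a FOS relative that is more stable than FOS. It had 4809, 5405 and 4267 counts in vector and 7152, 6534 and 7554 counts in oeRNF112, and the lowest oeRNF112 sample lay above the highest vector sample. The normalized level went from 122 ± 12.3 to 170 ± 9.97 CPM (SD, n = 3), which edgeR fitted as 0.47 ± 0.0971 on the log2 scale (value ± standard error, adjusted p = 0.00995). FOSL2 was the called member that rested most on single samples. Without vector replicate 1 its log2 fold change was 0.48 with an adjusted p of 0.0555 from the same test, so the call was lost at an almost equal size. FOSL2 overlaps FLJ31356 on the other strand and AC104695.3 on its own strand, and neither was among the listed genes.

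FOSL1 was by far the most abundant member in both groups. Its counts were 20745, 19589 and 22902 in vector and 22713, 24698 and 23626 in oeRNF112, and after scaling the groups overlapped at 536 ± 52.8 and 569 ± 28.1 CPM (SD, n = 3). The log2 fold change was 0.09 with a 95% interval of -0.13 to 0.30 (adjusted p = 0.568 from edgeR). At 304 ± 25.9 RPKM in vector and 345 ± 12.3 in oeRNF112, it ranked 157th of all 23152 genes by mean RPKM. FOSB, which has a role close to that of FOS, had 841, 864 and 1036 counts in vector and 1035, 1050 and 1150 in oeRNF112, and its log2 fold change was 0.16 (interval -0.10 to 0.41, adjusted p = 0.365). FOSB overlaps ERCC1 on the other strand, which had up to 5299 counts, and whether the counting used strand is not given in the sources used here.

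The JUN proteins are the partners that every FOS protein needs. JUN had 7710, 7860 and 8415 counts in vector and 8907, 9139 and 9270 in oeRNF112. Although the raw counts did not overlap, the normalized levels of 203 ± 12.9 and 219 ± 3.72 CPM did (SD, n = 3), because vector replicate 3 reached 218 CPM. The log2 fold change of JUN was 0.11 (interval -0.08 to 0.29, adjusted p = 0.398 from edgeR). JUNB, which activates weakly and can oppose JUN, had 2405 to 2729 counts in vector and 2541 to 2773 in oeRNF112, with a log2 fold change of -0.01 (interval -0.22 to 0.20) that turned to 0.09 when library totals were used without TMM scaling. JUNB overlaps HOOK2 on the other strand, which had up to 534 counts. JUND, the member typical of resting cells, had 983 to 1114 counts in vector and 971 to 1041 in oeRNF112, with a log2 fold change of -0.10 (interval -0.32 to 0.13). For these 5 members without a call, the intervals reached from -0.32 to 0.41 on the log2 scale, and a missed threshold does not show that these genes were unchanged.

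ATF3 is a stress-induced bZIP factor that pairs with JUN proteins and often represses. Its counts were 331, 318 and 324 in vector replicates and 530, 694 and 614 in oeRNF112 replicates. The vector samples were closely grouped at 8.24 ± 0.249 CPM, and the lowest oeRNF112 sample stood at 12.8 CPM. At 0.84 ± 0.128 on the log2 scale (value ± standard error, adjusted p = 0.00246 from edgeR), this was the largest rise among the 10 members. Even so, ATF3 remained the least abundant member per length in vector, at 2.78 ± 0.0350 RPKM, and in oeRNF112 its 5.30 ± 0.677 RPKM overlapped with FOS at 5.95 ± 2.17 RPKM (SD, n = 3).

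Both small MAF members rose. MAFF had 2582, 2365 and 2718 counts in vector and 3924, 4736 and 4010 in oeRNF112, or 0.64 ± 0.108 on the log2 scale (value ± standard error, adjusted p = 0.00383 from edgeR). MAFK had 1191, 1290 and 1410 counts in vector and 2388, 2313 and 2312 in oeRNF112, or 0.77 ± 0.0975 (adjusted p = 0.00101). The oeRNF112 samples of MAFK lay within 54.6 to 57.6 CPM, all above the vector range of 30.1 to 36.5 CPM. MAFF and MAFK overlap PLA2G6 and TMEM184A on the other strand, whose highest counts were 186 and 129. MAFG, the third small MAF gene and one of the listed partners below, went from 2896, 3295 and 2910 to 4601, 4352 and 4891 counts (log2 fold change 0.52, adjusted p = 0.00343). Summed over the 3 small MAF genes, the level without TMM scaling was 48.2 ± 2.01 RPKM in vector and 79.8 ± 2.89 RPKM in oeRNF112 (SD, n = 3).

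**Figure D2:**
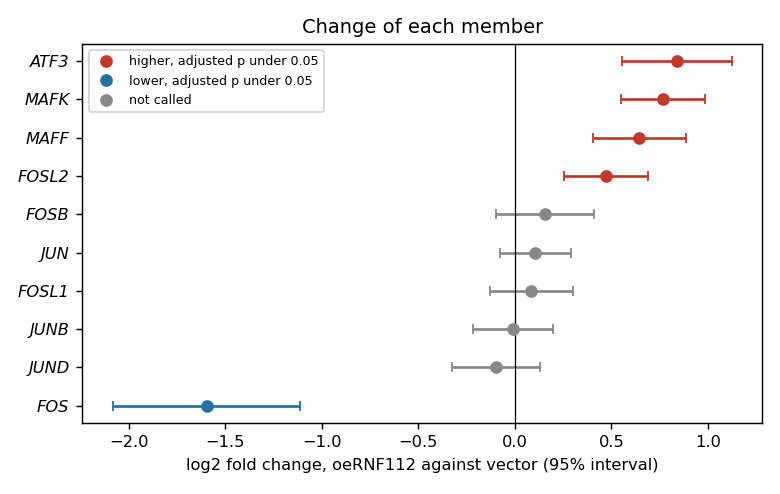
Log2 fold change (oeRNF112 against vector) of each of the 10 members with its 95% interval from the edgeR fit, ordered by size. FOS stands alone at -1.60, 4 members lie above 0 between 0.47 and 0.84, and the intervals of the other 5 include 0.

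Per length, the order of the members in vector was FOSL1, JUN, JUNB, MAFF, FOS, FOSL2, JUND, MAFK, FOSB and ATF3, from 304 down to 2.78 RPKM. The sample ranges of neighbors in this order were separate except for FOS with FOSL2 and FOSL2 with JUND. In oeRNF112 the order was FOSL1, JUN, MAFF, JUNB, FOSL2, MAFK, JUND, FOSB, FOS and ATF3. MAFF, at 42.4 ± 4.25 RPKM, thus stood above JUNB at 35.9 ± 1.46 RPKM, and FOS moved from place 5 to place 9, with ranges that overlapped those of FOSB and ATF3.

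The make-up of the FOS family followed from these levels. Of the summed RPKM of FOS, FOSB, FOSL1 and FOSL2, FOSL1 held 88.0% to 90.1% in the vector samples and 90.2% to 92.4% in the oeRNF112 samples. FOS held 4.20%, 5.50% and 5.11% in vector and 1.41%, 1.11% and 2.21% in oeRNF112. FOSL2 held 4.05%, 4.71% and 3.24% in vector and 5.56%, 4.73% and 5.59% in oeRNF112, so that FOS stood above FOSL2 in each vector sample and below it in each oeRNF112 sample. The fall of FOS was small against the family as a whole, whose summed RPKM was 341 ± 26.7 in vector and 378 ± 11.2 in oeRNF112. RPKM carries no TMM scaling, and after scaling FOSL1, the bulk of this sum, overlapped between groups at 536 ± 52.8 and 569 ± 28.1 CPM. With raw counts in place of RPKM, which favors the long FOSL2 transcript, the share of FOSL1 was lower by 1.32 percentage points in oeRNF112 instead of higher by 1.93. In the JUN family, JUN held 56.3% ± 0.676 in vector and 58.6% ± 0.0850 in oeRNF112, JUNB 31.5% ± 0.480 and 30.3% ± 0.713, and JUND 12.2% ± 0.204 and 11.1% ± 0.628. Of the 7 shares, FOS, FOSL1, FOSL2, JUN and JUND reached the smallest exact two-sided permutation p of 0.1 (0.14 after Benjamini-Hochberg adjustment), and FOSB and JUNB had 0.2.

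**Figure D3:**
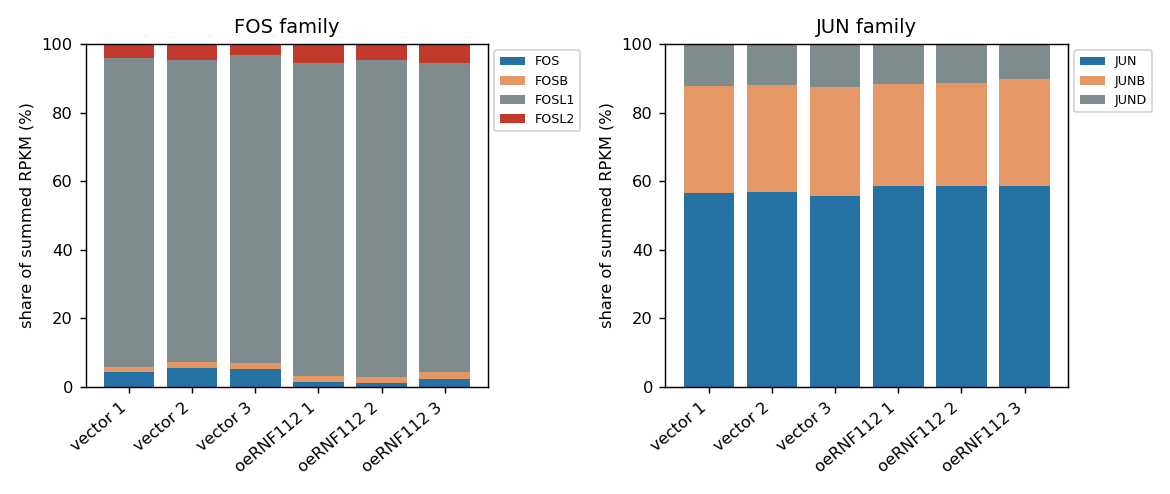
Share (%) of each gene in the summed RPKM of the FOS family (left) and of the JUN family (right), 1 bar for each sample. FOSL1 fills 88.0% to 92.4% of every FOS family bar, FOS shrinks from 4.20% to 5.50% in vector to 1.11% to 2.21% in oeRNF112, and the JUN family bars differ by a few percentage points.

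Other bZIP proteins share dimers with the members. Of 18 such partners, 13 were tested, and 3 passed as higher and none as lower (23.1%, beside 18.1% of all genes). They were BATF2, BACH1 and MAFG. BATF2, an interferon-induced partner of JUN proteins, went from 38, 31 and 36 to 146, 151 and 100 counts (log2 fold change 1.84, standard error 0.241, adjusted p = 0.00122 from edgeR). BACH1, a repressor that binds DNA together with small MAF proteins, went from 2436, 2736 and 1746 to 4837, 4647 and 5762 counts (log2 fold change 1.06, standard error 0.146, adjusted p = 0.00147). NFE2L2, the activator that competes with BACH1 for the same partners, did not pass, at 0.11 (adjusted p = 0.462). It falls outside the naming rule and was chosen after its value had been seen. Of the 5 partners that were not tested, none exceeded 14 counts.

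AP-1 genes are switched on through MAP kinase cascades and, for FOS, through serum response factor and its cofactors. Of 25 genes of this kind, 24 were tested, and 3 were higher and 1 was lower (16.7%, near the 18.1% of all genes). MAP2K3 and MAP2K6, the kinases that activate p38, went opposite ways. MAP2K3 had 2568, 2595 and 3028 counts in vector and 4259, 4483 and 4866 in oeRNF112 (log2 fold change 0.65, adjusted p = 0.00265 from edgeR), while MAP2K6 had 369, 410 and 372 against 204, 192 and 167 (log2 fold change -1.11, adjusted p = 0.000753). ELK3, a ternary complex factor that can repress FOS, and MAPK9, a JUN kinase, were higher, with log2 fold changes of 0.38 and 0.34 (edgeR adjusted p of 0.0143 and 0.0159). Both of these calls were lost, leaving 2, without vector replicate 1, without oeRNF112 replicate 1 or without oeRNF112 replicate 3. Of 10 genes that act on the turnover of JUN or FOS proteins, only DDB1, a subunit of CUL4 ubiquitin ligases, passed (10%, beside 18.1% of all genes), as lower (log2 fold change -0.36, adjusted p = 0.0142). No gene of this list passed without the same 3 samples, each left out in turn, and 2 passed without vector replicate 2 or oeRNF112 replicate 2.

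Of 36 genes known to respond to AP-1, 32 were tested, and 15 were higher and 3 lower in oeRNF112 (56.2%, beside 18.1% of all genes). Their median log2 fold change was 0.60. Many of these genes also answer to NF-kB or other factors, and earlier results on these samples were known when the list was written. Those with the smallest p included IL6, HBEGF, ITGB4 and CXCL8. HBEGF, a ligand of the EGF receptor, went from 885, 935 and 1052 to 2320, 2313 and 2526 counts (log2 fold change 1.24, standard error 0.101, adjusted p = 0.000130 from edgeR). The cytokines IL6 and CXCL8 rose with log2 fold changes of 1.66 and 1.41 (edgeR adjusted p of 4.34e-05 and 0.000283). ITGB4, an integrin of hemidesmosomes, fell from 1185, 1324 and 999 to 490, 435 and 431 counts (log2 fold change -1.45, adjusted p = 0.000135). MMP9, a matrix metalloproteinase named here after its counts had been seen, had 262 counts in oeRNF112 replicate 1 and 13 to 27 in the other 5 samples, and did not pass (adjusted p = 0.143). LYZ, a leukocyte marker also chosen after its counts had been seen, had 97 counts in that same sample and 2 to 8 elsewhere, and the part of this in the MMP9 value was not tested.

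Early-response genes outside the family were mostly higher. Of 20 such genes, 19 were tested, and 12 were higher and none lower (63.2%, beside 18.1% of all genes), with a median log2 fold change of 0.50. Without vector replicate 1 the number was 7. PPP1R15A, a phosphatase subunit of the stress response, had 3197, 2899 and 3446 counts in vector and 6406, 7367 and 6969 in oeRNF112 (log2 fold change 1.04, standard error 0.102, adjusted p = 0.000300 from edgeR). The nuclear receptor NR4A1 rose by 1.21, the phosphatase DUSP1, which turns off MAP kinases, by 0.82, the kinase SGK1 by 0.79 and the zinc finger factor KLF6 by 0.71, all as log2 fold changes (edgeR adjusted p of 0.000795, 0.00135, 0.00206 and 0.000931). Of the 19, 3 had a fitted value below 0. NR4A2 had the lowest, at -0.60 (adjusted p = 0.0655), with 118, 152 and 111 counts in vector against 92, 72 and 102 in oeRNF112 and no overlap, and it was chosen for that. No gene of the list had a fitted value as low as FOS.

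**Figure D4:**
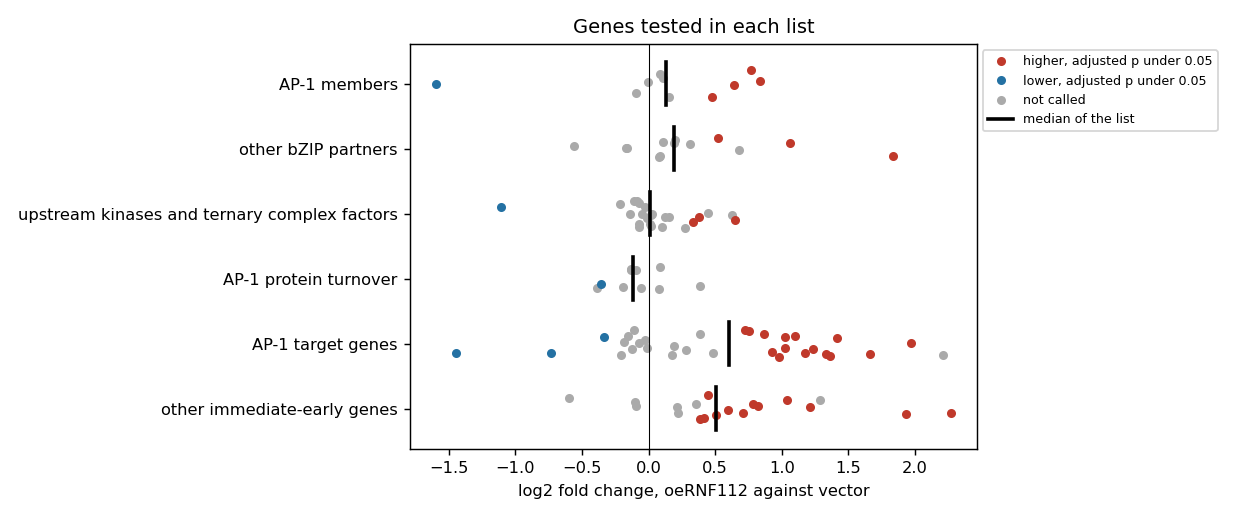
Log2 fold change (oeRNF112 against vector) of every tested gene in the 6 lists, with red points for genes that passed as higher, blue for those that passed as lower and grey for the rest; points are spread vertically at random and a black bar marks the median of the list. FOS is the blue point at -1.60, and the medians are 0.60 for the AP-1 target genes and 0.50 for the other immediate-early genes.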

How the data were processed

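T24 cells of 2 groups (vector and oeRNF112, 3 samples each) had been sequenced from a stranded mRNA library. The authors deposited raw read counts per gene symbol and RPKM values. The submitters' processing notes name Trimmomatic 0.36, Subread 1.5.1 with featureCounts and the build GRCh38. The aligner, annotation and strand setting are not given in the sources used here. In 12148 of 12148 genes with a mean RPKM above 0.5, the deposited RPKM equalled count per total and a single length within 0.1%. RPKM thus carries no TMM scaling. Library totals in edgeR gave a median log2 fold change of 0.096 over all genes, beside 0.003 with TMM factors, so RPKM places oeRNF112 somewhat higher. Counts were fitted with edgeR 4.0.16 in R 4.3.3 (its filter on low counts, TMM factors, quasi-likelihood test, Benjamini-Hochberg over all genes), with standard errors from the log2 fold change and the F statistic. DESeq2 1.42.0 and limma 3.58.1 served as alternatives. Scripts were tested on simulated data. Depth was 40029547 to 41259569 counts per sample, and the lowest count of a member was 318. Replicate samples differed by more than sampling noise, with a chi-square of at least 17.8 per gene, so none was a copy.

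The members and the gene lists were chosen with earlier results of these data known. Named genes were RNF112, the 10 members and, of each of 5 further lists, at most 5 genes past the threshold with the smallest p; other genes were named for overlapping a member or are marked as chosen after their values had been seen. A gene that the rule names is not reported here. Overlapping genes came from GENCODE v29. No sequence of a protein was used here.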

Additional observations from a re-analysis of the deposited data

How the results depend on the processing

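FOS, ATF3, MAFF and MAFK kept their direction and an adjusted p under 0.05 in 14 of 14 alternatives: DESeq2, DESeq2's size factors or library totals in edgeR, 2 other filters on low counts, limma on log2(RPKM + 1) or log2(RPKM + 0.1), a replicate block and 6 fits that each left out a sample. FOS ranged from -1.91 to -1.39, ATF3 from 0.731 to 0.930, MAFF from 0.557 to 0.738 and MAFK from 0.721 to 0.862. FOSL2 kept its call in 12. JUNB changed sign with library totals (0.0866), with limma (0.0862 and 0.0885), with at least 10 counts in every sample (6.03e-06), without vector replicate 3 (0.0705) and without oeRNF112 replicate 1 (0.0179), and its lowest value with a sample left out was -0.0495.

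Deviations from the group means correlated at -0.215, -0.610 and -0.522 between samples of equal replicate number, which gives no ground for pairing them. The replicate block gave 618 higher and 258 lower genes, against 1442 and 1178, and 3 members higher, since FOSL2 was lost (adjusted p = 0.0797). It left 2 upstream genes and 0 turnover genes called, and of the other named genes it lost ELK3, MAPK9 and DDB1.

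The lower genes were 659 with library totals (2020 higher, or 75.4% of calls against 55.0%), 669 with limma and a pseudocount of 1 and 682 with 0.1, and library totals gave 5 called partners. Over the fits that each left out a sample, higher genes went from 702 to 1841, lower genes from 359 to 1546, higher members from 3 to 4, upstream genes from 2 to 5, turnover genes from 0 to 2 and early-response genes from 7 to 14, and each of these lowest counts was reached without vector replicate 1. With counts in place of RPKM the share of FOSL1 changed by -1.32 and that of FOSL2 by 4.74 percentage points. The causes were not tested. Depth left each member with at least 318 counts in every sample.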
